A study of Homo sapiens with 8 samples.

Results

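The mitochondrially encoded genes are the 37 genes of the human mitochondrial genome, recognised by the MT- prefix of their symbols. They make up 37 of the 58592 annotated genes with a transcript in the tables, and comprise 13 messenger RNAs, 2 ribosomal RNAs and 22 transfer RNAs. The overexpression group held 4 libraries of HEK293T cells, an embryonic kidney line of the 293T/17 clone, transfected by FuGene HD with a construct carrying the human KCNQ3 open reading frame with a tag. The control group held 4 libraries labelled as normal HEK293T cells of the same line. KCNQ3 encodes a subunit of the potassium channels behind the neuronal M-current. The labels attach one transfection text and a harvest at 48 hours to every sample; what the control cells received, reagent alone, another plasmid or neither, was not given in the sources used here. Replicates are described as biological, with no mention of separate cultures, and the p-values below therefore cover only the spread among these libraries, which may be technical.

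Human mitochondrial DNA is a small circle whose strands are named heavy and light by their base composition. Each strand is transcribed into a long precursor, and most messenger and ribosomal RNAs are cut free where a transfer RNA is excised at their ends. The messenger RNAs encode membrane subunits of respiratory complexes I, III and IV and of the ATP synthase, complex V, and the ribosomal and transfer RNAs serve their translation inside the organelle. Genes are called heavy-strand here where the heavy strand is the template, and light-strand where the light strand is. By that naming 28 members were heavy-strand genes, namely 12 messenger RNAs, both ribosomal RNAs and 14 transfer RNAs. The 9 light-strand genes were MT-ND6 and 8 transfer RNAs.

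The sequences that the values turn on are printed 5′ to 3′ in DNA letters as GENCODE 29 transcripts (GRCh38). The first pair are the transfer RNA genes with the highest levels, both read from the light strand, the second pair those with the lowest levels, both heavy-strand genes, and the last has the largest fitted fold change of the tested members. Capitals mark the anticodon. They lie at chrM:5761-5826, chrM:5826-5891, chrM:577-647, chrM:7518-7585 and chrM:15888-15953.
MT-TC: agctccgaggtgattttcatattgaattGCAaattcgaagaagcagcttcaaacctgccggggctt
MT-TY: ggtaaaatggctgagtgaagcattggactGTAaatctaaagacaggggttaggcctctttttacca
MT-TF: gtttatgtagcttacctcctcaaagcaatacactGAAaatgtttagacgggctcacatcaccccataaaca
MT-TD: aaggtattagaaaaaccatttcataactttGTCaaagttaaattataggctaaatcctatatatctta
MT-TT: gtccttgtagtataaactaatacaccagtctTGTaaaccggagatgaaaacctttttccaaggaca

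Neighbouring genes also share bases, which bears on how reads were divided between them. MT-ATP8 and MT-ATP6 overlap by 46 bases and MT-ND4L and MT-ND4 by 7 bases, in each case on the same strand and in one bicistronic messenger RNA. The overlap stands in capitals below, with 20 bases on either side (chrM:8507-8592 and chrM:10740-10786), and in both the capitals open with the start codon of the downstream frame.
MT-ATP8/MT-ATP6: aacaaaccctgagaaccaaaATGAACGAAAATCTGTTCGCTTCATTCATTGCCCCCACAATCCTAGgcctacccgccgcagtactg
MT-ND4L/MT-ND4: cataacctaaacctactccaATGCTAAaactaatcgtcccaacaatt
Other overlaps were of 3 bases between MT-TI and MT-TQ on opposite strands, and of 1 base each between MT-TC and MT-TY and between MT-ATP6 and MT-CO3. The strands differed in composition: heavy-strand messenger RNAs held 6.3% to 16.2% G and 29.5% to 36.0% C, while MT-ND6 held 35.6% G and 7.0% C. In 6 of 13 messenger RNAs (MT-ND1, MT-ND2, MT-CO3, MT-ND3, MT-ND4 and MT-CYB) the gene ends with an incomplete stop codon, TA or T, which polyadenylation is known to complete. Whether the libraries or the counting kept strand was not given in the sources used here, so reads from opposite strands over the same bases cannot be told apart.

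Libraries held 24020097 to 30734915 estimated counts, and 19280 genes were tested. KCNQ3 had 15283, 15874, 19709 and 18603 counts in overexpression replicates 1 to 4, against 4, 5, 0 and 2 counts in control replicates 1 to 4, which checks the labels (log2 fold change 12.63, SE 0.25, adjusted p = 6.46e-07 in edgeR's quasi-likelihood fit, Benjamini-Hochberg over all genes). Markers of the HEK293T line had counts for 6 of 6 genes, with summed levels of 339 to 388 CPM (counts per 1000000 of a library, TMM-scaled) in overexpression and 348 to 370 CPM in control libraries. The muscle and liver markers, for tissues rich in mitochondria, also had counts for 5 of 5 genes. They summed to at most 2.53 CPM in overexpression and 2.35 CPM in control libraries. Fibroblast markers had counts for 4 of 7 genes, with COL1A2, DCN and THY1 at 0. They summed to 15.4 to 19.3 CPM in overexpression and 16.4 to 19.0 CPM in control libraries. Blood cell markers had counts for 3 of 6 genes, with PTPRC, CD3E and HBB at 0. They summed to 2.48 to 2.94 CPM in overexpression and 2.11 to 3.10 CPM in control libraries.

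Mitochondrially encoded genes took a slightly larger mean share of all counts in overexpression libraries, and the groups overlapped. The share was 4.77%, 4.87%, 5.28% and 5.77% in overexpression replicates 1 to 4, against 4.59%, 3.94%, 4.10% and 5.53% in control replicates 1 to 4. Control replicate 4 lay above 3 of the 4 overexpression libraries. Messenger RNAs made 4.40% ± 0.413 of counts in overexpression and 3.85% ± 0.628 in control libraries (SD, n = 4 per group). Ribosomal RNAs made 0.725% ± 0.0414 in overexpression and 0.650% ± 0.0939 in control libraries. Transfer RNAs made 0.0486% ± 0.00208 in overexpression and 0.0407% ± 0.00609 in control libraries. These are libraries of whole cultures, so fewer cells carrying a transcript and less transcript per cell cannot be told apart.

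None of the members passed the gene test. Of 37 members 34 were tested, MT-TF, MT-TW and MT-TD having too few counts, and 0 of 34 had an adjusted p under 0.05, where 0.301% of all genes tested did (58 of 19280). At an unadjusted p under 0.05 stood 6 of 34, against 19.4% of all genes. These were MT-RNR1, MT-TC, MT-CO1, MT-TS1, MT-TH and MT-TT, each with a higher fitted level in overexpression, as 9.92% of all genes had at that p. The signs were less even than the calls: the log2 fold change was above 0 in 31 of 34 members, against 52.6% of all genes, with a median of 0.21, against 0.01 over all genes. It was at least 0.15 in 29 of 34, against 18.3%. In 0 of 34 were the CPM of the groups apart, where 11.6% of all genes had groups that did not overlap. Members share precursors and libraries and are not independent of one another.

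**Figure D1:**
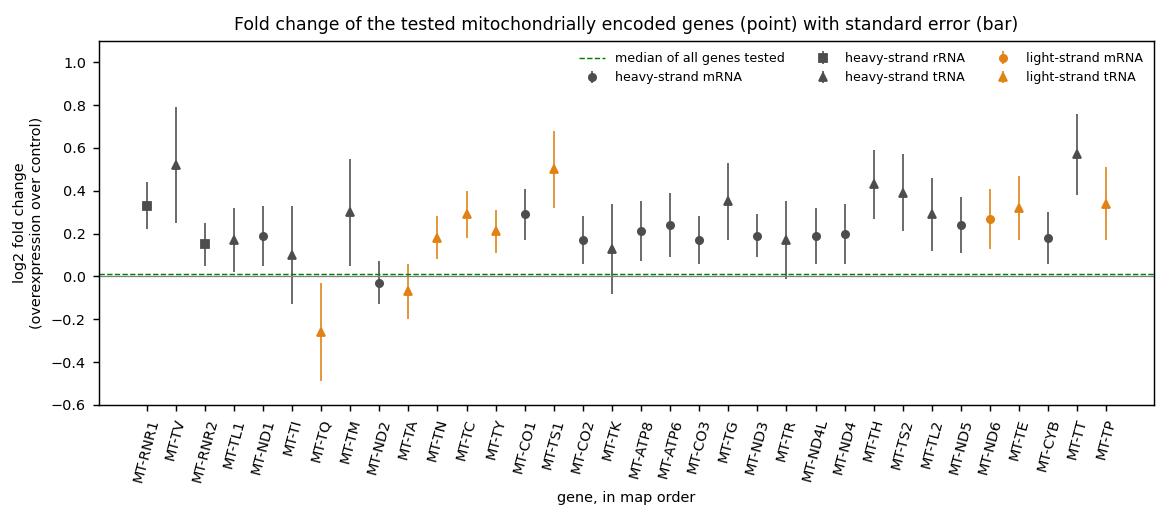
Fitted log2 fold change (overexpression over control, vertical axis) of the 34 tested members in map order. Bars are 1 standard error implied by edgeR's quasi-likelihood test, and may be too short for transfer RNA genes with few counts. Squares are ribosomal, circles messenger and triangles transfer RNAs, with heavy-strand genes in grey and light-strand genes in orange; 31 of 34 points lie above 0, and MT-TQ, MT-TA and MT-ND2 lie below. The dashed line is the median of all genes tested, 0.01.

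DESeq2 gave an adjusted p to 25 of the 34 and called 2, MT-TC and MT-RNR1 (log2 fold change 0.28 and 0.33, adjusted p = 0.0380 and 0.0259), where it called 9.9% of all genes with an adjusted p. Limma on log2(TPM + 1) called 0 of 34 (6 at an unadjusted p under 0.05), where it called 0.0363% of all genes. EdgeR on transcripts called 0 of 34 (3 unadjusted), where it called 0.0127% of all transcripts. For these fits the share of all genes or transcripts at an unadjusted p under 0.05 was not counted. The 6 and 3 therefore cannot be read as many or few. Without control replicate 4, edgeR called 2, MT-TC (0.39, adjusted p = 0.0431) and MT-TT (0.77, adjusted p = 0.0497), where it called 0.994% of all genes.

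Of the ribosomal RNAs, MT-RNR1, the 12S RNA of the small mitochondrial ribosomal subunit, had the larger fitted difference. Its level was 1532, 1759, 1771 and 1896 TPM (a level per transcript length, scaled to 1000000 per library) in overexpression replicates 1 to 4, against 1360, 1288, 1464 and 1607 TPM in control replicates 1 to 4. The groups overlapped by one library each, since overexpression replicate 1 lay below control replicate 4. Its log2 fold change was 0.33 (SE 0.11, adjusted p = 0.161). MT-RNR2, the 16S RNA of the large subunit, had 6384, 6047, 6389 and 6877 TPM in overexpression replicates 1 to 4, against 6294, 4828, 6033 and 6734 TPM in control replicates 1 to 4. Only control replicate 2 stood well below the rest, and the log2 fold change was 0.15 (SE 0.10, adjusted p = 0.466). Although the ribosomal RNAs leave the same precursor, the TPM of MT-RNR1 was 0.271 ± 0.0217 of that of MT-RNR2 in overexpression and 0.241 ± 0.0207 in control libraries (SD, n = 4 per group), with overlapping groups. How ribosomal RNA was treated in library preparation was not given in the sources used here.

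Among messenger RNAs, the levels spanned about the same range in both groups and put complex IV first. Averaged over 8 libraries, MT-CO1 (10032 TPM), MT-CO2 (9616) and MT-CO3 (9412), the catalytic core of cytochrome c oxidase, were highest. MT-ND4 (8629 TPM) and MT-ATP6 (7974) followed, and MT-CYB (4872), MT-ND4L (4593) and MT-ATP8 (3741) came next. MT-ND2 (2807 TPM), MT-ND5 (2771), MT-ND6 (2527), MT-ND1 (2499) and MT-ND3 (2493), all complex I subunits, were lowest. Of 12 pairs of neighbours in this order, 7 kept the same order in 8 of 8 libraries, and the ranges overlapped in 11, the exception being MT-ATP6 above MT-CYB. The order among MT-CO1, MT-CO2 and MT-CO3 was not constant across libraries, nor was that of MT-ND2 against MT-ND5, MT-ND6 against MT-ND1 or MT-ND1 against MT-ND3.

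**Figure D2:**
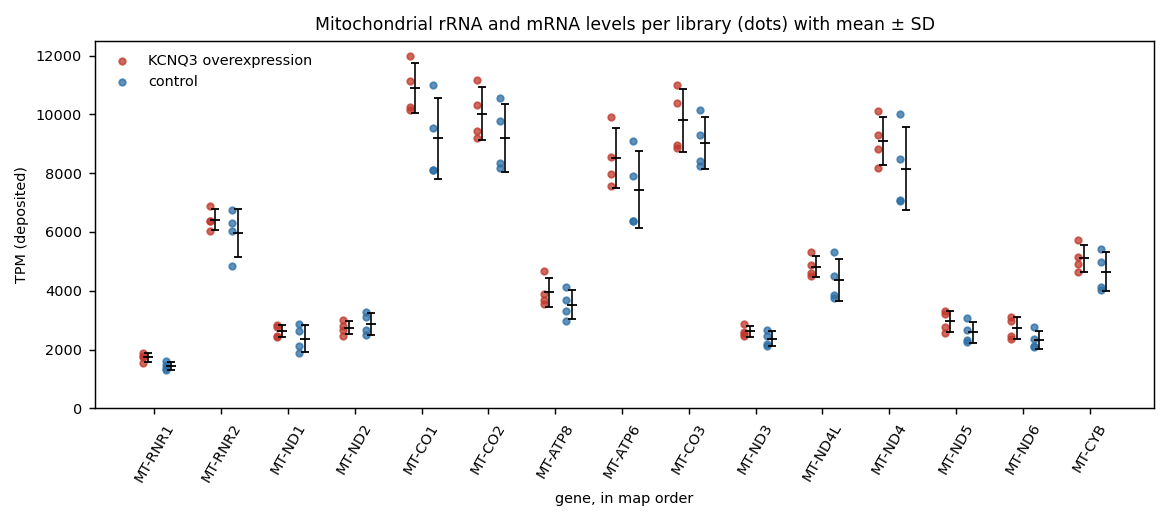
TPM (vertical axis) of the 2 ribosomal and 13 messenger RNAs in map order, with a dot per library and the mean ± SD of 4 libraries, KCNQ3 overexpression left of control for each gene. The groups overlap for each gene, and MT-CO1, MT-CO2 and MT-CO3 stand highest.

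By respiratory complex the summed messenger RNA level was divided alike. The 7 complex I messenger RNAs held 36.4% ± 0.555 of the messenger RNA TPM in overexpression and 36.8% ± 0.449 in control libraries. Complex III, represented by MT-CYB, held 6.73% ± 0.0918 in overexpression and 6.81% ± 0.126 in control libraries. The 3 complex IV messenger RNAs held 40.5% ± 0.547 in overexpression and 40.3% ± 0.711 in control libraries, and the 2 of complex V held 16.4% ± 0.511 in overexpression and 16.1% ± 0.404 in control libraries (SD, n = 4 per group). No complex had groups apart.

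MT-CO1, which holds the oxygen-reducing centre of complex IV, had the largest fitted difference of the messenger RNAs. It stood at 10267, 10151, 11143 and 11973 TPM in overexpression replicates 1 to 4, against 9527, 8115, 8093 and 10990 TPM in control replicates 1 to 4. Control replicate 4 again lay among the overexpression libraries, and the log2 fold change was 0.29 (SE 0.12, adjusted p = 0.226). MT-CO2, the subunit that receives electrons from cytochrome c, had 10021 ± 902 TPM in overexpression and 9211 ± 1155 TPM in control libraries (log2 fold change 0.17, SE 0.11). MT-CO3 had 9803 ± 1068 TPM in overexpression and 9021 ± 877 TPM in control libraries (0.17, SE 0.11). For MT-CO2 and MT-CO3 the difference of the means was smaller than the SD of either group.

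The bicistronic pair of complex V showed the same overlap. MT-ATP6, part of the proton channel of ATP synthase, had 8504 ± 1022 TPM in overexpression and 7444 ± 1314 TPM in control libraries (log2 fold change 0.24, SE 0.15). MT-ATP8, a small subunit of the same membrane part, had 3953 ± 490 TPM in overexpression and 3528 ± 503 TPM in control libraries (0.21, SE 0.14). Although both frames lie on one messenger RNA, the TPM of MT-ATP8 was 0.465 ± 0.0179 of that of MT-ATP6 in overexpression and 0.477 ± 0.0294 in control libraries. The other bicistronic pair also differed in level, MT-ND4L standing at 0.531 ± 0.0135 of the TPM of MT-ND4 in overexpression and 0.535 ± 0.00784 in control libraries. Within each pair the downstream, longer frame thus had the higher TPM, by a ratio that overlapped between the groups. With the TPM of annotated nuclear copies added to their mitochondrial gene, the MT-ATP8 ratio was 0.340 ± 0.0121 in overexpression and 0.347 ± 0.0200 in control libraries. The MT-ND4L ratio was then 0.525 ± 0.0197 in overexpression and 0.535 ± 0.00783 in control libraries. The size of the MT-ATP8 ratio thus depends on whether copies are included.

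MT-CYB, the cytochrome b of complex III, had 5105 ± 466 TPM in overexpression and 4640 ± 664 TPM in control libraries (log2 fold change 0.18, SE 0.12). The complex I subunits encoded by heavy-strand genes lie in its membrane arm, as does the MT-ND6 subunit. MT-ND4 had 9098 ± 822 TPM in overexpression and 8160 ± 1401 TPM in control libraries (0.20, SE 0.14), and MT-ND4L 4821 ± 360 TPM in overexpression and 4366 ± 725 TPM in control libraries (0.19, SE 0.13). MT-ND5 had 2960 ± 363 TPM in overexpression and 2582 ± 366 TPM in control libraries (0.24, SE 0.13). MT-ND1 had 2625 ± 215 TPM in overexpression and 2373 ± 445 TPM in control libraries (0.19, SE 0.14), and MT-ND3 2618 ± 184 TPM in overexpression and 2367 ± 255 TPM in control libraries (0.19, SE 0.10). Adjusted p for the 13 messenger RNAs ran from 0.226 to 0.923 in edgeR's quasi-likelihood test. Their median log2 fold change was 0.19 (0.32 without control replicate 4), and 12 of 13 lay above 0.

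For these messenger RNAs, the highest and lowest library of a group mostly lay further apart than the groups did in fitted level. The highest CPM was in overexpression replicate 4 for 10 of 13 and in control replicate 4 for the other 3. The lowest was in control replicate 2 for 7 and in control replicate 3 for 6. Relative to the mean of the 8 libraries, the median log2 deviation over the 13 was −0.05, 0.01, 0.14 and 0.29 in overexpression replicates 1 to 4, against −0.09, −0.27, −0.30 and 0.21 in control replicates 1 to 4. Within the overexpression group the highest library was 1.14 to 1.40 times the lowest, and within the control group 1.30 to 1.61 times, depending on the gene. The median fold change between the groups was 1.14. A range over 4 libraries is not the same measure as a fold change between groups.

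**Figure D3:**
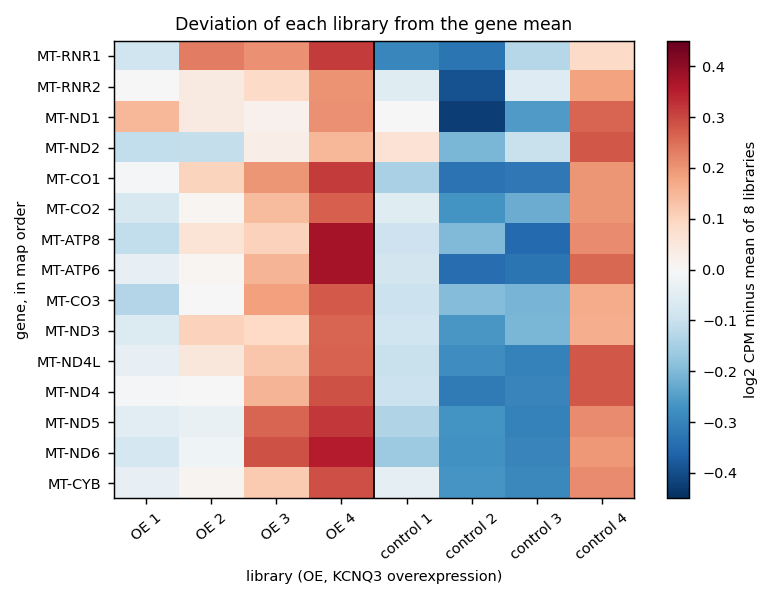
Heat map of the log2 CPM of each library minus the mean of 8 libraries (colour, red above and blue below) for the ribosomal and messenger RNAs, genes in map order down the page and the 4 overexpression libraries left of the 4 control libraries. Most messenger RNAs follow the library, with overexpression replicate 4 and control replicate 4 red and control replicates 2 and 3 blue.

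MT-ND2 departed from that shared movement. It encodes a core subunit of the complex I membrane arm, and it was the 1 messenger RNA of 13 with a log2 fold change below 0 (−0.03, SE 0.10, adjusted p = 0.923). That sign was not stable, the fold change being 0.00 without overexpression replicate 1 or 2 and 0.07 without control replicate 4. Its level was 2680, 2474, 2788 and 3002 TPM in overexpression replicates 1 to 4, against 3096, 2490, 2653 and 3271 TPM in control replicates 1 to 4, so its own groups overlapped widely. Set against the other messenger RNAs of the same library, which needs no scaling between libraries, they did not. MT-ND2 counts were 4.34%, 4.17%, 4.17% and 4.13% of the summed counts of the other 12 messenger RNAs in overexpression replicates 1 to 4, against 5.13%, 4.88%, 5.21% and 4.77% in control replicates 1 to 4. Each overexpression library lay below each control library, with means of 4.20% ± 0.0951 in overexpression and 5.00% ± 0.205 in control libraries (SD, n = 4 per group), a ratio of 0.841. This ratio was examined after the values were seen, so no p is given.

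All 78 pairs of messenger RNAs were then compared by their count ratio within each library, and in 14 the groups did not overlap (17.9% of pairs). Pairs that share a gene are not independent. The share among pairs of other genes was not counted, so 14 cannot be read as many or few. MT-ND2 was in 10 of the 14, each time lower relative to its partner, and its partners were the other messenger RNAs apart from MT-ATP8 and MT-CO3. MT-CO1 was in 5, relatively higher in each. The counts of MT-ND2 were 17.6%, 16.5%, 16.9% and 16.9% of those of MT-CO1 in overexpression replicates 1 to 4, against 22.0%, 20.7%, 22.1% and 20.1% in control replicates 1 to 4. MT-ND1 lies just upstream of MT-ND2 on the map, with only transfer RNA genes between them, and MT-ND2 counts were 102.5%, 111%, 124% and 118% of MT-ND1 counts in overexpression replicates 1 to 4, against 129%, 143%, 137% and 125% in control replicates 1 to 4. Overexpression replicate 3 and control replicate 4 came within about 1 percentage point in that ratio. With the counts of nuclear copies added to their mitochondrial gene, for these ratios a recount made after seeing the data, 13 pairs did not overlap and MT-ND2 was again in 10. MT-ND2 held 43.0% G and C, and heavy-strand messenger RNAs 39.6% to 47.7%. Whether base composition bears on these ratios was not tested.

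MT-ND6, the messenger RNA read from the light strand and a core subunit of complex I, had 2454, 2355, 2983 and 3096 TPM in overexpression replicates 1 to 4, against 2367, 2127, 2076 and 2760 TPM in control replicates 1 to 4. Control replicates 1 and 4 lay inside the overexpression range, and the log2 fold change was 0.27 (SE 0.14, adjusted p = 0.350). Its TPM was 0.446 ± 0.0268 of the mean heavy-strand messenger RNA in overexpression and 0.426 ± 0.0108 in control libraries (SD, n = 4 per group). The light-strand genes together made 2.52% ± 0.0653 of mitochondrial counts in overexpression and 2.42% ± 0.0705 in control libraries. The median log2 fold change was 0.27 over the 9 light-strand genes and 0.20 over the 25 tested heavy-strand genes. In both shares the groups overlapped.

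Transfer RNA genes differed far more between strands in level than between groups. The 8 light-strand transfer RNA genes had a median level of 1045 TPM (11.0 to 2920), and 5 of 8 reached 500 TPM. The 14 heavy-strand ones had a median of 25.3 TPM (2.91 to 727), and 1 of 14 reached 500 TPM. Light-strand genes took 85.9% ± 0.778 of transfer RNA counts in overexpression and 85.8% ± 1.29 in control libraries (SD, n = 4 per group). Mature transfer RNAs are short and heavily modified and are recovered poorly by silica columns and ordinary libraries, so these values need not stand for mature transfer RNA. The strand of the reads is not known either, and light-strand genes lie opposite heavy-strand precursor. The part of precursors in these values was not tested.

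**Figure D4:**
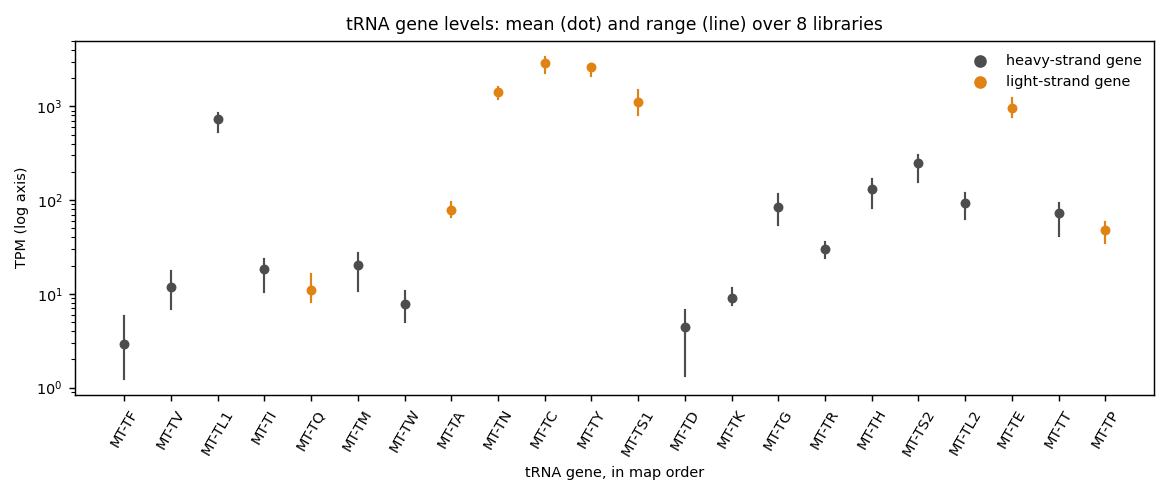
Mean TPM (dot, log axis) and the range over 8 libraries (line) of the 22 transfer RNA genes in map order, with heavy-strand genes in grey and light-strand genes in orange. MT-TN, MT-TC, MT-TY, MT-TS1, MT-TE and MT-TL1 lie above 500 TPM.

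The light-strand transfer RNA genes with the highest levels sit in one cluster around the origin of light-strand replication. MT-TC, for cysteine, had 3379, 3075, 2929 and 3282 TPM in overexpression replicates 1 to 4, against 2559, 2269, 2770 and 3095 TPM in control replicates 1 to 4. Control replicate 4 was the one control library inside the overexpression range, and the log2 fold change was 0.29 (SE 0.11, adjusted p = 0.200). MT-TY, for tyrosine, had 2757 ± 111 TPM in overexpression and 2455 ± 311 TPM in control libraries (0.21, SE 0.10). MT-TN, for asparagine, had 1487 ± 109 TPM in overexpression and 1357 ± 136 TPM in control libraries (0.18, SE 0.10). The fourth light-strand gene of the cluster, MT-TA for alanine, was much lower, with 75.7 ± 14.4 TPM in overexpression and 82.0 ± 3.65 TPM in control libraries (−0.07, SE 0.13).

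The remaining light-strand transfer RNA genes lie apart. MT-TS1, one of the serine genes, lies just past the MT-CO1 frame on the opposite strand and had 1056, 1211, 1486 and 1419 TPM in overexpression replicates 1 to 4, against 923, 873, 802 and 1177 TPM in control replicates 1 to 4. Control replicate 4 lay inside the overexpression range. Its TPM was 0.118 ± 0.0125 of that of MT-CO1 in overexpression and 0.103 ± 0.00548 in control libraries, with overlapping groups, and its log2 fold change was 0.50 (SE 0.18, adjusted p = 0.206). MT-TE, for glutamate, adjoins MT-ND6 and had 1064 ± 157 TPM in overexpression and 878 ± 121 TPM in control libraries (0.32, SE 0.15). MT-TP, for proline, had 53.6 ± 2.91 TPM in overexpression and 43.4 ± 10.8 TPM in control libraries (0.34, SE 0.17). MT-TQ, for glutamine, had the lowest level of the light-strand genes and the lowest fold change of the members tested, with 9.80 ± 1.45 TPM in overexpression and 12.2 ± 3.12 TPM in control libraries (−0.26, SE 0.23).

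Among heavy-strand transfer RNA genes, MT-TL1 stood apart in level. It is the leucine gene directly after MT-RNR2, known as the site of the common MELAS mutation, and had 759 ± 54.1 TPM in overexpression and 696 ± 139 TPM in control libraries (log2 fold change 0.17, SE 0.15). MT-TT, for threonine, follows MT-CYB and had the largest fitted fold change of the tested members, 0.57 (SE 0.19, adjusted p = 0.149). Its level was 78.3, 80.1, 93.9 and 93.6 TPM in overexpression replicates 1 to 4, against 58.2, 41.1, 59.6 and 79.3 TPM in control replicates 1 to 4, so that control replicate 4 reached the overexpression range. Relative to MT-CYB in the same library its TPM was 0.0170 ± 0.00102 in overexpression and 0.0128 ± 0.00236 in control libraries, with groups that did not overlap. This was the case for 1 of 5 ratios of a transfer RNA to a neighbouring gene, examined with the values known. The groups overlapped for MT-TS1 over MT-CO1, MT-TE over MT-ND6, MT-TL1 over MT-RNR2 and MT-TH over MT-ND4. The share among such ratios of other genes was not counted, so 1 of 5 cannot be read as many or few. MT-TT had 83 to 106 counts per library in overexpression and 44 to 86 in control libraries. MT-TH, for histidine, the first of 3 transfer RNA genes between MT-ND4 and MT-ND5, had 149 ± 17.6 TPM in overexpression and 114 ± 23.9 TPM in control libraries (0.43, SE 0.16, adjusted p = 0.185). The neighbours of MT-TH, MT-TS2 for serine and MT-TL2 for leucine, had log2 fold changes of 0.39 (SE 0.18) and 0.29 (SE 0.17).

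The other heavy-strand transfer RNA genes were lower. MT-TG for glycine had 93.7 ± 15.7 TPM in overexpression and 76.1 ± 16.3 TPM in control libraries (log2 fold change 0.35, SE 0.18), and MT-TR for arginine 31.4 ± 3.54 TPM in overexpression and 28.9 ± 5.69 TPM in control libraries (0.17, SE 0.18). MT-TV for valine (0.52, SE 0.27), MT-TI for isoleucine (0.10, SE 0.23), MT-TM for methionine (0.30, SE 0.25) and MT-TK for lysine (0.13, SE 0.21) stood at or under 27.6 TPM in each library. The untested MT-TF, MT-TW and MT-TD, for phenylalanine, tryptophan and aspartate, stood at or under 10.7 TPM in each library. Fitted without the filter on low counts, their log2 fold changes were 0.62 (SE 0.44), −0.13 (SE 0.27) and −0.09 (SE 0.39) for MT-TF, MT-TW and MT-TD, with adjusted p of 0.633 to 0.982. These rest on 2 to 10 counts per library in overexpression and 2 to 14 in control libraries.

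Nuclear copies of mitochondrial DNA share sequence with the members and took part of the counts. Of 407 annotated copies, 106 had a count, and together their counts equalled 15.7% ± 0.185 of those of the mitochondrial genes in overexpression and 15.3% ± 0.147 in control libraries (SD, n = 4 per group). The groups did not overlap in that share, nor in the share of MT-CO1 copies, which equalled 34.7% ± 0.165 of MT-CO1 counts in overexpression and 34.3% ± 0.0429 in control libraries. They overlapped for the copies of MT-ATP6, MT-CO3, MT-CO2, MT-ND2, MT-ND1 and MT-RNR2. Of these, MT-ATP6, MT-CO3 and MT-ND2 had the lower mean share in overexpression. How often such shares stand apart for other genes was not counted. The 5 with the highest counts, MTCO1P12, MTATP6P1, MTCO3P12, MTCO2P12 and MTND2P28, all lie on chromosome 1. Of the stretches of 75 bases in a member, 36.6% in MT-CO1, 34.4% in MT-ND2, 28.0% in MT-ATP6, 14.6% in MT-CO3 and 10.5% in MT-CO2 were also present in another annotated transcript. MTCO1P12 had a log2 fold change of 0.30 (SE 0.12, adjusted p = 0.223) beside 0.29 for MT-CO1, and MTND2P28 had −0.03 (SE 0.10) beside −0.03 for MT-ND2. MTATP6P1 (0.23, SE 0.15), MTCO3P12 (0.16, SE 0.11) and MTCO2P12 (0.17, SE 0.12) likewise stood within 0.01 of their mitochondrial gene. Counts of MTND2P28 were 1.12% ± 0.0284 of the summed counts of mitochondrial messenger RNAs other than MT-ND2 in overexpression and 1.34% ± 0.0567 in control libraries, with groups apart as for MT-ND2 itself. How the authors' tools divided shared reads was not given in the sources used here, so counts at a copy and at its mitochondrial gene cannot be told apart.

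**Figure D5:**
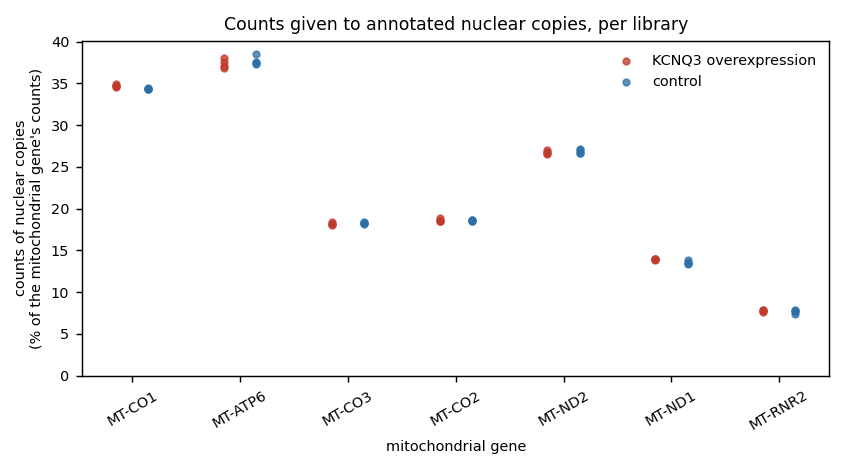
Counts of annotated nuclear copies as a percentage of the counts of their mitochondrial gene (vertical axis), with a dot per library, KCNQ3 overexpression left of control. The share depends on the gene and differs little between libraries, lying between 34.6% and 35.0% in overexpression and 34.3% and 34.4% in control libraries for MT-CO1. For the other genes shown the groups overlap.

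One copy, named outside the rule after its values were seen, behaved otherwise. MTND4P12, a copy of MT-ND4 on chromosome 5, had 7947 counts in overexpression replicate 1, against 0 in the other 7 libraries. MT-ND4 itself held no stretch of 75 bases found in another annotated transcript. MTCO1P40 and MTCO2P2, also outside the rule, shared no such stretch with a member either. Their mean counts over the 8 libraries were 3149 and 2395. Why MTND4P12 had counts in 1 library only was not tested. Without this copy, nuclear copies equalled 15.5% ± 0.129 of mitochondrial gene counts in overexpression and 15.3% ± 0.147 in control libraries, and the groups overlapped.

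The nuclear genes that keep and express the mitochondrial genome were read from a textbook list of 78 names, which yielded 76 distinct genes, all tested. Past the threshold of edgeR's quasi-likelihood test were 0 higher and 0 lower, with 22 at an unadjusted p under 0.05, of which 16 were higher, where 19.4% of all genes stood at that p and 9.92% were higher. DESeq2 called 7 of 75 with an adjusted p, 6 higher and 1 lower (25 unadjusted), where it called 9.9% of all such genes. Limma on log2(TPM + 1) called 0 (6 unadjusted), where it called 0.0363% of all genes. For DESeq2 and limma the share of all genes at an unadjusted p under 0.05 was not counted. The 25 and 6 therefore cannot be read as many or few. The median log2 fold change was 0.07, beside 0.01 over all genes, and 50 of 76 lay above 0, against 52.6% of all genes. In 15 the groups did not overlap, 11 higher and 4 lower, where 5.84% of all genes were so placed higher and 5.77% lower. The lowest adjusted p of the list was 0.0887.

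By role, the most abundant genes of the list stood as follows. For DNA upkeep, SSBP1, which coats single-stranded mitochondrial DNA, had a log2 fold change of 0.09 (SE 0.06), and DGUOK, which makes precursors for its replication, 0.08 (SE 0.05). For transcription, MRPL12, a ribosomal protein that also binds the polymerase, had 146 ± 8.23 CPM in overexpression and 131 ± 3.18 CPM in control libraries (0.15, SE 0.05, adjusted p = 0.123), and TFB1M, the methyltransferase of the 12S RNA, had −0.08 (SE 0.06). Named outside the rule as the best known factors, TFAM had 0.06 (SE 0.04) and the polymerase POLRMT −0.04 (SE 0.05). None of these passed edgeR's test.

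For RNA processing, HSD17B10, a subunit of mitochondrial RNase P, had 77.7 ± 3.19 CPM in overexpression and 69.8 ± 1.89 CPM in control libraries (0.15, SE 0.04, adjusted p = 0.0995), and GTPBP3, which modifies transfer RNAs, had 0.08 (SE 0.06). For stability, SLIRP and LRPPRC, partners that bind mitochondrial messenger RNAs, had 0.23 (SE 0.14) and 0.05 (SE 0.04). For translation, TUFM, the mitochondrial elongation factor Tu, had 311 ± 11.8 CPM in overexpression and 284 ± 8.34 CPM in control libraries (0.13, SE 0.04, adjusted p = 0.143), and OXA1L, which inserts proteins into the inner membrane, had 0.05 (SE 0.04). Of regulators of nuclear mitochondrial genes, MYC had 0.20 (SE 0.13) and PPRC1 −0.03 (SE 0.05). The 7 genes DESeq2 called were HSD17B10, MRPL12, TUFM, MRRF, FASTK and MRM1, higher, and MGME1, lower. The last 4, outside the rule, had edgeR log2 fold changes of 0.29 (SE 0.10), 0.15 (SE 0.05), 0.36 (SE 0.09) and −0.17 (SE 0.05), and MRM1, which methylates the 16S RNA, had the lowest edgeR adjusted p of the list. The groups of MRPL12, HSD17B10 and TUFM did not overlap, with the 4 overexpression libraries higher in each. They were among 11 of 76 so placed higher, where 5.84% of all genes were. The 4 placed lower, where 5.77% of all genes were, were PRIMPOL, PDE12, MTRF1L and TFEB, also outside the rule.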

How the data were processed

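RNA was measured in 8 libraries, 4 of KCNQ3 overexpression and 4 of control HEK293T cells. Both tables deposited by the authors list 227751 transcripts, one with estimated counts and the other with TPM. StringTie 2.1.0, SAMtools 1.9, HISAT2 2.1.0, FastQC 0.11.5 and cutadapt 2.8 were used with build GRCh38.p13, per the submitters' processing notes. Read length, RNA selection and strand use were not given in the sources used here. Counts were whole as deposited, so rounding changed none. Transcripts were summed per gene through GENCODE release 29 (205804 matched, holding 98.7% to 98.9% of counts). Replicate libraries differed beyond sampling noise (chi-square per degree of freedom 9.72 to 18.6).

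Genes were tested by edgeR's quasi-likelihood method (edgeR 4.0.16, R 4.3.3) over genes kept by filterByExpr (minimum count 10), TMM-scaled, with Benjamini-Hochberg adjustment over 19280 genes and a threshold of 0.05. Log2 fold changes are overexpression over control. Their edgeR SE was calculated back from the test, as the size of the log2 fold change over the square root of the F statistic. For transfer RNA genes with few counts it may be too small. DESeq2's own SE was 0.40 for MT-TQ and 0.42 for MT-TV, where the edgeR values were 0.23 and 0.27. Alternatives were DESeq2 1.42.0, limma 3.58.1 on log2 TPM, other scalings and filters, transcripts as features, nuclear copies added, a replicate block and each library left out. Levels between genes are compared in TPM; shares and ratios have no test.

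The members and lists were chosen with earlier results of these data known. All 37 members are described, transfer RNAs singly where the mean count is at least 10. From the list of nuclear genes the text names members past the threshold and the 2 most abundant of each role, and of nuclear copies the 5 with the highest counts. Ratios between messenger RNAs were examined after the values were seen.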

Additional observations from a re-analysis of the deposited data

Results flagged for a closer look

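Each value below came from a library far from the other 3 of its group, judged by its gap to the nearest of them relative to the range of the group. Of 176 groups checked 9 were so placed, where chance places about 1 in 20. MT-TF had 0.290 CPM in overexpression replicate 4, against 0.124 to 0.15 CPM in the rest of the group. MT-TA had 4.34 CPM in overexpression replicate 2, against 2.91 to 3.12 CPM. The TPM of MT-ND4L over that of MT-ND4 was 0.551 in overexpression replicate 2, against 0.523 to 0.525 in its group, and 0.547 in control replicate 2, against 0.530 to 0.533. The TPM of MT-TH over that of MT-ND4 was 0.0182 in overexpression replicate 3, against 0.0156 to 0.0160.

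The others concern nuclear copies. Their counts equalled 15.97% of mitochondrial gene counts in overexpression replicate 1, against 15.60% to 15.62% in the rest of the group. Without MTND4P12 the share in that library was 15.35%, below the same range. The copies of MT-CO1 equalled 34.97% of its counts in overexpression replicate 3, against 34.62% to 34.68%. MTND4P12 had 298 CPM in overexpression replicate 1 and was at 0 in the rest of the group.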

How the results depend on the processing

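Genes past the threshold numbered 35 without a scaling factor, 1352 with DESeq2, 7 with limma on log2(TPM + 1), 7 on log2(TPM + 0.1) and 6 with transcripts as features, against 58, and 8 to 378 with one library left out (378 without overexpression replicate 1, 8 without overexpression replicate 2). Mitochondrially encoded genes past it numbered 2 with DESeq2 and 0 to 2 with one library left out (2 without control replicate 4), and 0 under the other alternatives that were run. With one library left out, the log2 fold change of MT-ND2 ran from −0.10 to 0.07 (0.00 without overexpression replicate 1 or 2, 0.07 without control replicate 4) and that of MT-TI from −0.07 (without control replicate 3) to 0.28. The cause was not tested. The median log2 fold change of the 13 messenger RNAs ran from 0.13 to 0.32 (0.32 without control replicate 4). With nuclear copies added, MT-CO3 moved above MT-CO2, MT-ATP6 above MT-ND4 and MT-ND1 above MT-ND5 in the order of levels.

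With the replicate number as a block, 86 genes passed and 0 mitochondrially encoded ones. The block changed the members' errors unevenly. The SE fell from 0.11 to 0.06 for MT-RNR1 (adjusted p = 0.0655 in edgeR's quasi-likelihood test) and from 0.14 to 0.08 for MT-ND1. It stayed at 0.10 for MT-TN and rose from 0.23 to 0.26 for MT-TQ. Same-numbered libraries had correlations of −0.046 to 0.014 in their deviations, so the numbers were not taken to pair the samples. Low counts limit MT-TF, MT-TW and MT-TD, and opposite-strand reads cannot be told apart.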
